A study of Mus musculus with 24 samples.

Results

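The 32 genes described here mark B and T lymphocytes, and they were taken as a measure of lymph node tissue and of resident lymphocytes in libraries of mouse inguinal fat. They were chosen by symbol from a fixed list of members, and 32 of 32 were among the 16233 genes of the deposited table. By textbook role 12 are B cell genes, 15 are T cell genes and 5 are used by both. RNA was sequenced from inguinal white adipose tissue of male C57BL6 mice, 10 to 11 weeks old per the design text, in 24 libraries. The groups were ZT15 RUN (1 hour of exercise, early active phase), ZT15 SED (a sham hour on an artificial treadmill), ZT3 RUN (1 hour of exercise, early rest phase) and ZT3 SED (the sham hour), with 6 libraries each. ZT counts hours from lights on. The labels name no transgene or drug for any group, and they give no hour after the bout. Libraries are named by time, group and a number given in record order, as in ZT15_SED_5, which pairs nothing. Whether every library comes from its own mouse is not stated, and p-values refer to the scatter among libraries alone.

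Lymph nodes are held within fat, and the inguinal node lies inside the inguinal depot. In a node, B cells gather in follicles, to which the receptor Cxcr5 guides them, and T cells in the surrounding paracortex, to which Ccr7 guides them, while both enter from blood through high endothelial venules. Fat also holds lymphocytes outside the node, in smaller numbers. A node cut along with the fat brings its RNA into the library. In whole tissue, fewer cells of a type and less RNA per cell cannot be told apart.

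The libraries did not form 1 cloud in these genes. Values are the deposited TMM-scaled CPM (counts scaled to a common library total), and libraries held 18493799 to 34678732 reads. Cd79a (ENSMUSG00000003379), a signalling chain of the B cell receptor, was above 5 in 3 libraries: 54.6 in ZT15_SED_5, 14.1 in ZT15_SED_3 and 99.2 in ZT3_RUN_4. It was between 0.24 and 1.33 in the other 21, with a median of 15 reads. The 3 libraries fall in 2 groups, and none is a ZT15 RUN or a ZT3 SED library. For each comparison between groups the signs of the members are therefore given with and without them below. edgeR was run on all libraries alone, and some single genes are given with all libraries alone. These 3 were set apart by Cd79a itself, so their levels are a description and carry no test.

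In all 32 members each of the 3 libraries lay above every one of the other 21. Over all genes this held for 1076, or 6.63% of the table. The 3 libraries together held over 80% of the summed value of 24 members, against 0.468% of all genes, and over 95% of that of 6 members. An even spread over 24 libraries would put 12.5% there, and the median over all genes was 12.1%. The share ran from 36.6% for Ighm to 98.0% for Fcmr, with a median of 88.8%. The members took 0.282% of the reads of ZT15_SED_5 (95% exact interval 0.280 to 0.284%), 0.0824% in ZT15_SED_3 (0.0814 to 0.0835%) and 0.426% in ZT3_RUN_4 (0.424 to 0.429%). In the other 21 libraries they took 0.0079 to 0.0226%. Such intervals cover counting error only. Over the other 21 libraries the summed value of the members had a median of 154, or 45.4 with Ighm left out. In ZT3_RUN_4 that sum was 3570, or 2857 with Ighm left out.

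**Figure D1:**
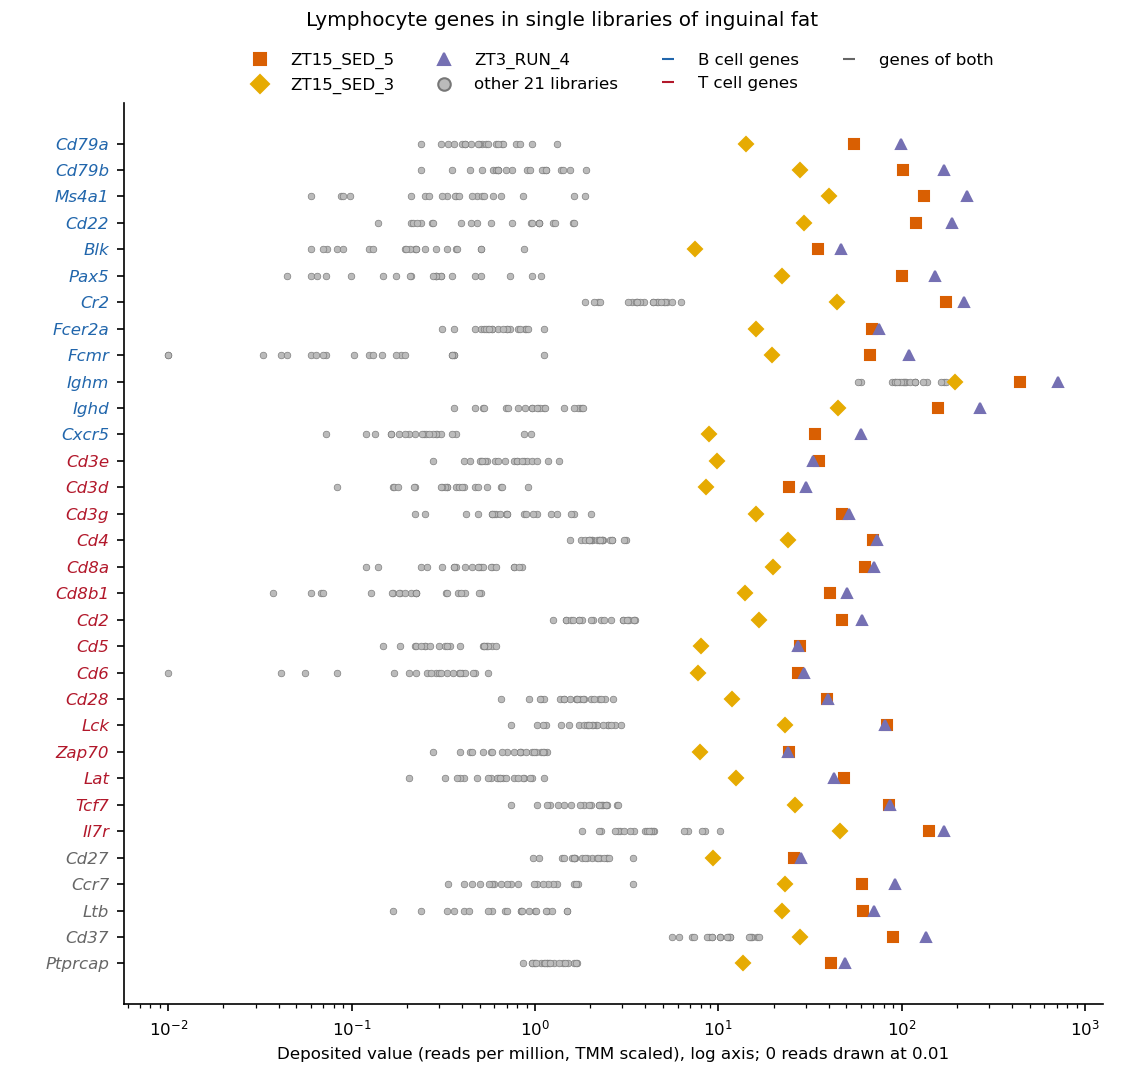
Each row is 1 member gene and each point 1 library, with the deposited TMM-scaled CPM on a log axis. The 3 coloured symbols are ZT15_SED_5, ZT15_SED_3 and ZT3_RUN_4, which lie above all 21 grey libraries in 32 of 32 genes.

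Among the B cell genes, those of the antigen receptor and its partners were far apart between the libraries. Ms4a1 (ENSMUSG00000024673), which encodes the surface protein CD20, was at 132 in ZT15_SED_5, 40.4 in ZT15_SED_3 and 226 in ZT3_RUN_4, against 0.060 to 1.87 in the other 21. Pax5, the transcription factor that holds B cell identity, and Cd22, an inhibitory partner of the receptor, had the same pattern. Cd22 was at 120, 29.3 and 188 in the same 3 libraries in that order, against 0.14 to 1.64. Fcmr, the receptor for the Fc part of IgM, had the largest fold over the median of the other 21 of all members. It was at 67.1, 19.6 and 109, against a median of 0.12 in the other libraries, of which 2 had 0 reads. Over the 12 B cell genes the median fold over the median of the other 21 was 145 in ZT15_SED_5, 36.4 in ZT15_SED_3 and 233 in ZT3_RUN_4.

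The follicle genes were part of the same step. Cxcr5, the follicle homing receptor, was at 33.8 in ZT15_SED_5, 8.87 in ZT15_SED_3 and 60.0 in ZT3_RUN_4, against 0.072 to 0.95 elsewhere. Cr2, which encodes the complement receptors CD21 and CD35 of mature B cells and follicular dendritic cells, was at 175, 44.2 and 218 in those libraries, against 1.89 to 6.26. Fcer2a, the low-affinity IgE receptor CD23 of the same 2 kinds of cell, was at 69.1, 16.0 and 75.4, against 0.31 to 1.12.

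Immunoglobulin heavy chains split in a way the other B cell genes did not. Ighd, the constant region of IgD, which mature naive B cells carry beside IgM, was at 157 in ZT15_SED_5, 44.7 in ZT15_SED_3 and 266 in ZT3_RUN_4, against 0.36 to 1.83 in the other 21. Ighm, the constant region of IgM, was at 442, 195 and 712 in the 3, against 58.0 to 175, so its step was small. Divided by Ighd within each library, Ighm was 2.82 (95% exact interval 2.72 to 2.91) in ZT15_SED_5, 4.35 (4.10 to 4.62) in ZT15_SED_3 and 2.67 (2.61 to 2.74) in ZT3_RUN_4. In the other libraries the same ratio was 56.6 to 216, with a median of 104. The lowest of these 21 ratios had a lower counting bound of 42.5, above all 3. Per kilobase of exon Ighm ranked first of the 32 members both in ZT3_RUN_4 and in the other 21 libraries, while Ighd ranked 2nd and 11th.

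T cell genes were higher in the same 3 libraries too, by smaller median folds. The median fold over the median of the other 21 was 51.8 in ZT15_SED_5, 14.3 in ZT15_SED_3 and 47.7 in ZT3_RUN_4. Cd3e (ENSMUSG00000032093), a chain of the T cell receptor complex, was at 35.5, 9.81 and 32.7, against 0.28 to 1.36. Cd4, the coreceptor of helper T cells, was at 69.4, 23.9 and 73.1, against 1.56 to 3.12. Cd8a, a chain of the cytotoxic coreceptor, was at 62.7, 19.9 and 70.8, against 0.12 to 0.85. The largest T cell step was that of Cd8b1, the partner chain of Cd8a, with a fold of 240 in ZT3_RUN_4.

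The 2 coreceptors stood in another proportion in the 3 libraries than elsewhere. Cd4 divided by Cd8a was 1.11 (1.04 to 1.18) in ZT15_SED_5, 1.2 (1.08 to 1.34) in ZT15_SED_3 and 1.03 (0.98 to 1.09) in ZT3_RUN_4, against 2.40 to 18.5 with a median of 4.67 in the other 21. Cd8a had few reads in those 21, down to 2 in ZT15_RUN_5, so the high end of that range is loose.

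Homing and survival genes of naive lymphocytes followed. Ccr7 was at 60.4 in ZT15_SED_5, 23.0 in ZT15_SED_3 and 91.6 in ZT3_RUN_4, against 0.33 to 3.42. Il7r, the interleukin 7 receptor that keeps naive T cells alive, was at 141, 45.9 and 170, against 1.81 to 10.2. Tcf7, a transcription factor of naive and memory T cells, was at 85.3, 26.2 and 86.6, against 0.74 to 2.84. Of the 5 genes used by B and T cells, Cd37, a tetraspanin of most white cells, moved least, at 89.4, 27.8 and 136, against 5.62 to 16.6.

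Promoter stretches are printed for 1 B cell and 1 T cell gene of this shared step, since both hold a motif of a lineage factor just before the start. RefSeq promoters (GRCm38.p6, 250 bases before to 50 after the start) were found for 19 of the 32 members. The first line is Cd22 (chr7:30879029-30879148, minus strand) with an EBF motif in capitals. The second is Lck, the kinase that starts T cell receptor signalling (chr4:129573642-129573761, minus strand), with a RUNX motif in capitals. Both run 5′ to 3′ over the 120 bases before the start.
Cd22: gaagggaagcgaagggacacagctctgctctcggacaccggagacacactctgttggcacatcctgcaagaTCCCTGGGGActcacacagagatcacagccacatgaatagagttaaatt
Lck: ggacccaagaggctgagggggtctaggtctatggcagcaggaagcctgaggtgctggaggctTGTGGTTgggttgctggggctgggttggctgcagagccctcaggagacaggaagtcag

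Both strands were searched for 4 motifs, which do not overlap in these matches. The EBF motif (its letters in Cd22 are the capitals above) was in 1 of the 19 member promoters (Cd22) and in 1.06% of 27025 promoters of all genes. The RUNX motif TGTGGTT was in Lck and Il7r, and in 6.09% of all. The TCF motif CTTTGAA was in Cd27, and in 5.93% of all. The octamer ATGCAAAT was in 0 of the 19, and in 1.97% of all. These are letter matches within a short window and not shown sites.

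The 3 libraries did not differ by 1 common factor. In ZT15_SED_5 the B cell genes were lower than in ZT3_RUN_4, with a median ratio of values of 0.617 over the 12 genes, from 0.551 for Cd79a to 0.916 for Fcer2a. The 15 T cell genes had a median ratio of 0.949, from 0.779 for Cd2, an adhesion receptor, to 1.13 for Lat, the adaptor below the T cell receptor. The counting interval of the ratio lay below 1 for 12 of 12 B cell genes. It lay below 1 for 6 T cell genes, included 1 for 8 (Cd3e, Cd4, Cd5, Cd6, Cd28, Lck, Zap70 and Tcf7) and lay above 1 for Lat alone. These are 2 single libraries, and genes of 1 library are not replicates.

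**Figure D2:**
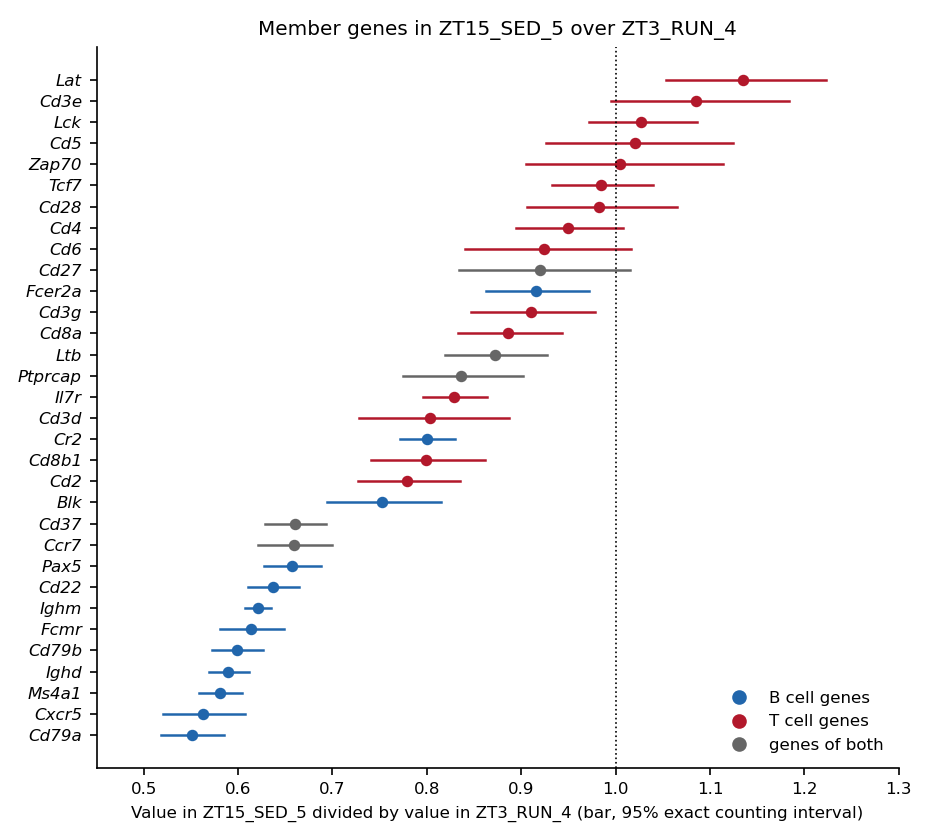
The value of each member gene in ZT15_SED_5 divided by that in ZT3_RUN_4, with 95% exact counting intervals as bars, coloured by role. B cell genes run from 0.551 to 0.916 and T cell genes from 0.779 to 1.13, so their ranges overlap.

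Fcer2a and Cr2 had the highest ratios of the B cell genes, 0.916 and 0.80, while Cxcr5, Ms4a1 and Ighd had 0.562, 0.581 and 0.590. Between ZT15_SED_3 and ZT3_RUN_4 the median ratio was 0.166 for B cell genes and 0.290 for T cell genes, and between ZT15_SED_3 and ZT15_SED_5 it was 0.261 and 0.317. Summed over 10 B cell genes, leaving out Ighm and Cr2, which had the highest medians of the 12 in the other 21 libraries, and divided by the sum of the 15 T cell genes, the proportion was 1.08 in ZT15_SED_5, 0.915 in ZT15_SED_3 and 1.6 in ZT3_RUN_4. The other 21 libraries had 0.122 to 0.616, with a median of 0.268. Over all 12 B cell genes the order was the opposite, at 1.85 in ZT15_SED_5, 1.86 in ZT15_SED_3 and 2.67 in ZT3_RUN_4, against 2.78 to 14.7 in the other 21, so the direction depends on leaving out those genes.

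**Figure D3:**
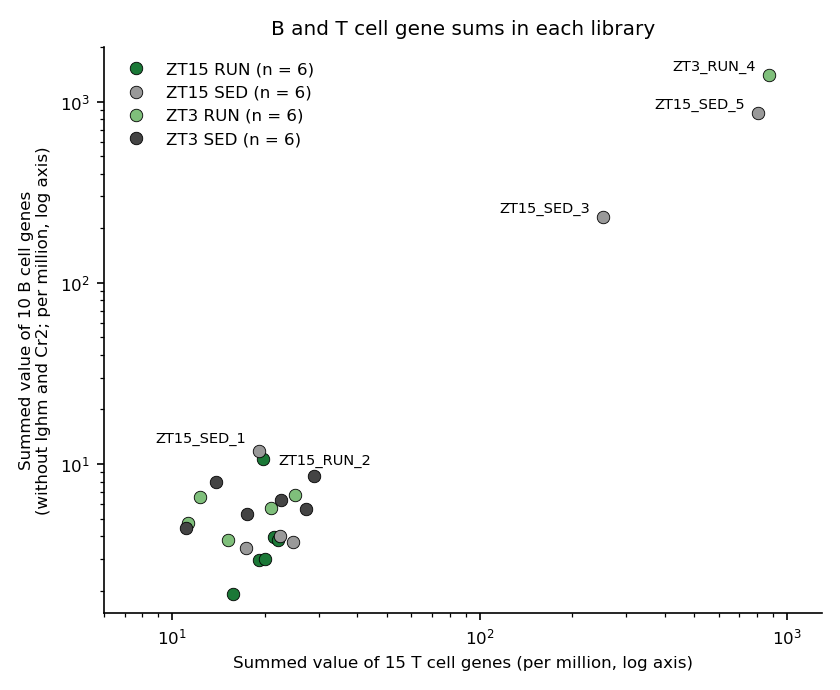
Summed value of 10 B cell genes against that of 15 T cell genes in each of 24 libraries, both in TMM-scaled CPM on log axes, coloured by group. ZT15_SED_5, ZT15_SED_3 and ZT3_RUN_4 stand at the upper right, and ZT15_RUN_2 and ZT15_SED_1 at the top of the remaining cloud.

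Genes of the node outside the lymphocytes were read from other lists. Glycam1, a mucin of high endothelial venules, was at 74.5 in ZT15_SED_5, 29.8 in ZT15_SED_3 and 58.9 in ZT3_RUN_4, against 0.11 to 1.08 in the other 21. Fut7, a fucosyltransferase of these venules, was at 2.77, 1.55 and 2.89, against 0.04 to 0.77. Of the 6 node stroma genes in the table these 2 alone had all 3 libraries above every other. Cxcl13, the chemokine that draws Cxcr5-bearing cells, overlapped, at 50.8, 38.3 and 58.2, against 4.83 to 71.8. Ltbr, the lymphotoxin beta receptor, was at 36.6, 53.1 and 33.0, against 42.6 to 60.2.

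Further lymphocyte genes took the same form. Of 15 other B cell genes, 13 had all 3 libraries above every other. The 3 most abundant of the 15 were Cd55, which overlapped, and Ciita and Bank1, which did not. Bank1, a scaffold of B cell receptor signalling, was at 173 in ZT15_SED_5, 52.0 in ZT15_SED_3 and 290 in ZT3_RUN_4, against 2.98 to 14.6. Of 14 other T cell genes 13 did so; of the most abundant, Thy1 overlapped, while Prkcq did not. Of 11 trafficking genes 9 did so; S1pr1 overlapped, and Itga4 and Coro1a did not. The list of common white cell genes had 8 of 10 (Ptprc and Coro1a, but not Laptm5), and dendritic genes had 5 of 8 (not Zbtb46, Itgax or Cd209a).

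Other cell types did not follow in full. Genes of NK, innate and unconventional T cells had all 3 libraries on top in 6 of 14, with Il2rb among them and Rora and Il1rl1 not. Among germinal centre and cycling genes Bcl6 and S1pr2 overlapped in all 3 libraries. Mki67, at 65.4 in ZT15_SED_5, 34.2 in ZT15_SED_3 and 101 in ZT3_RUN_4, against 11.5 to 43.1, overlapped in ZT15_SED_3 alone. So did Top2a, Ccnb2 and Birc5. This list had all 3 on top in 1 of 7 (Gcsam). Plasma cell genes (Irf4, Xbp1 and Sdc1 the most abundant), macrophage genes (Lyz2, Mrc1, Csf1r), blood genes (Pf4, Hba-a1, Alas2), skeletal muscle genes (Myh4, Acta1, Ckm) and adipocyte genes (Fabp4, Adipoq, Cidec) had 0. The summed adipocyte genes were at 10979 in ZT15_SED_5, 21022 in ZT15_SED_3 and 8707 in ZT3_RUN_4, against 14326 to 23850, so the labelled tissue was present in each. The lists overlap in the genes Coro1a and Rac2.

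In the 21 libraries low in Cd79a many members had few reads, down to a median of 3 for Fcmr. Others had more, among them Ighm with a median of 2834 reads, Cd37 with 332, Cr2 with 112, Il7r with 99, Cd2 with 66 and Cd4 with 63. In deposited values Ighm had a median of 105, Cd37 of 11.2 and Il7r of 4.08, and the median over the 32 members was 0.73. Per kilobase of exon the order began with Ighm at 55.4, Cd37 at 3.18, Cd2 at 1.32 and Il7r at 0.88, and ended with Ms4a1 at 0.06, Cd6 at 0.04 and Pax5 at 0.03. Cd79a ranked 4th of the 32 in ZT3_RUN_4 and 15th in these libraries, and Ms4a1 ranked 10th and 30th. Fcmr had 0 reads in 2 libraries and Cd6, a T cell surface receptor, in 1.

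Of these 21, ZT15_RUN_2 and ZT15_SED_1 stood above the rest in some B cell genes and in their sum, while other libraries were highest in Cd79b, Cd22, Pax5, Cr2 and Ighm. Ms4a1 was at 1.64 in ZT15_RUN_2 and 1.87 in ZT15_SED_1, with 0.060 to 0.86 in the remaining libraries. Cxcr5 was at 0.87 in ZT15_RUN_2 and 0.95 in ZT15_SED_1. The sum of 10 B cell genes was 10.7 and 11.8 in these libraries, against 8.61 in the next highest, ZT3_SED_2, and a median of 4.75 over the 21, while the T cell sum was 19.8 and 19.1, against a median of 19.8. Their titles carry the neighbouring numbers 15 and 14, and the labels do not say what title numbers mean.

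Pairs of members were correlated over the 21 libraries on log2(value + 1), 5 pairs in all, with two-sided permutation tests adjusted over the 5. Cd79a and Ms4a1 had Pearson's r of 0.67 (permutation p = 0.00146, adjusted 0.0073) and Spearman's rho of 0.41 (p = 0.0648, adjusted 0.108). Without ZT15_SED_1 and ZT15_RUN_2, the 2 farthest from the median of Cd79a, r was 0.19, so the r over all 21 depends on those libraries. In the 3 runs of 8 title numbers r was 0.86, 0.81 and -0.28, over 6, 8 and 7 libraries. Both of those libraries are in the 2nd run, so the 0.86 of the first does not rest on them. Cd3e and Cd3g, both chains of the T cell receptor complex, had r of 0.53 (permutation p = 0.0139, adjusted 0.0347) and rho of 0.55 (p = 0.0106, adjusted 0.0528). Their r was 0.62 without ZT15_RUN_6 and ZT3_RUN_2, and -0.19, 0.51 and 0.79 within the title runs.

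By Pearson's r the other 3 pairs missed the threshold, and by Spearman's rho all 5 pairs missed it after adjustment. Cd79a and Cd3e had r of -0.07 (permutation p = 0.774, adjusted 0.864), the single pair of a B with a T cell gene. Cd3e and Cd4 had r of 0.04 (permutation p = 0.864, adjusted 0.864). Cd3e and Cd8a had r of 0.40 (permutation p = 0.0712, adjusted 0.119), or 0.24 without the farthest 2. For these 3 pairs Spearman's rho was -0.07 (p = 0.772, adjusted 0.965), 0.01 (p = 0.976, adjusted 0.976) and 0.43 (p = 0.0518, adjusted 0.108). At these read numbers a weak relation may not be detectable.

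Genes outside the list were ranked by their likeness to 2 members. Over all 24 libraries the 10 with the highest r with Cd79a included Spib, Fam169b, Fcrla, Fcrl1, Sidt1, Chst3, Slamf6, Apol7c and H2-Eb2, from 0.995 to 0.987, a description that the 3 high libraries carry. Over the 21 libraries the 10 most like Cd3e included Sdad1, Heatr3, Lrrc15, Ints13, Themis, Akp-ps1, Slc25a48, 2310069G16Rik and Nrep, from 0.803 to 0.737. Of these, Themis is on the list of other T cell genes.

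The first comparison between groups asks what exercise did at ZT15. With all 24 libraries the 32 members were all lower in ZT15 RUN, by a median log2 difference of -1.31, and 0 passed limma's test (smallest adjusted p = 0.338, Cr2), against 0.641% of all genes. The median over all genes was 0.00. At an unadjusted p under 0.05 limma had 1 member, Cr2, with its count over all genes not given here. edgeR called 0 members (0.745% of all genes), with 31 members and 2434 of all genes at an unadjusted p under 0.05, and DESeq2 called 26 lower, where it called 3.46% of all genes, or 1.43% lower. Without the 3 libraries 26 members were lower and 6 higher, with a median of -0.12, beside 8413 lower and 7820 higher over all genes, limma called 0 members (0.136% of all genes) and DESeq2 called 1 lower, Cr2 (2.24% of all genes, or 0.721% lower).

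Single members show how far the libraries spread. Cd79a ran from 0.24 through a median of 0.42 to 0.96 in ZT15 RUN, and from 0.49 through 0.98 to 54.6 in ZT15 SED. The groups overlapped, and the difference was -1.59 ± 0.91 (SE, n = 6 each, limma adjusted p = 0.478). It was -0.23 ± 0.13 (adjusted p = 0.544) without ZT15_SED_5 and ZT15_SED_3, where ZT15 SED ends at 1.33. Ms4a1 ran from 0.060 through 0.28 to 1.64 in ZT15 RUN and from 0.089 through 1.07 to 132 in ZT15 SED. It differed by -1.95 ± 1.16 (limma adjusted p = 0.503), or by -0.05 ± 0.25 (0.986) without the 3. Ighm ran from 58.0 through 100.4 to 164 in ZT15 RUN and from 94.2 through 124 to 442 in ZT15 SED, a difference of -0.58 ± 0.43 (limma adjusted p = 0.603), or -0.12 ± 0.26 (0.951) without the 3. Ighd ran from 0.36 through 0.52 to 1.83 in ZT15 RUN and from 0.72 through 1.33 to 157 in ZT15 SED. Without ZT15_SED_5 and ZT15_SED_3 its ZT15 SED median was 0.91 and its highest value 1.63.

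T cell members had the same form. Cd3e ran from 0.51 through 0.85 to 1.36 in ZT15 RUN and from 0.62 through 1.10 to 35.5 in ZT15 SED, a difference of -1.17 ± 0.71 (limma adjusted p = 0.510), or -0.04 ± 0.12 (0.969) without the 3. Cd8a ran from 0.12 through 0.41 to 0.61 in ZT15 RUN and from 0.46 through 0.84 to 62.7 in ZT15 SED, a difference of -1.75 ± 0.91 (limma adjusted p = 0.434), or -0.26 ± 0.13 (0.448). The T cell groups thus overlapped at their low ends in both genes. Il7r ran from 3.07 through 4.36 to 6.49 in ZT15 RUN and from 2.24 through 4.25 to 141 in ZT15 SED. Its difference of -1.15 ± 0.88 (limma adjusted p = 0.629) turned to 0.25 ± 0.34 (0.894) without the 3. Cd4, Cxcr5, Ccr7 and Tcf7 had medians of 2.21, 0.25, 1.07 and 2.26 in ZT15 RUN, against 2.29, 0.57, 0.89 and 2.46 in ZT15 SED. Without ZT15_SED_5 and ZT15_SED_3 the ZT15 SED medians were 2.13, 0.18, 0.69 and 2.33, so Cd4 and Cxcr5 then lay below ZT15 RUN.

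**Figure D4:**
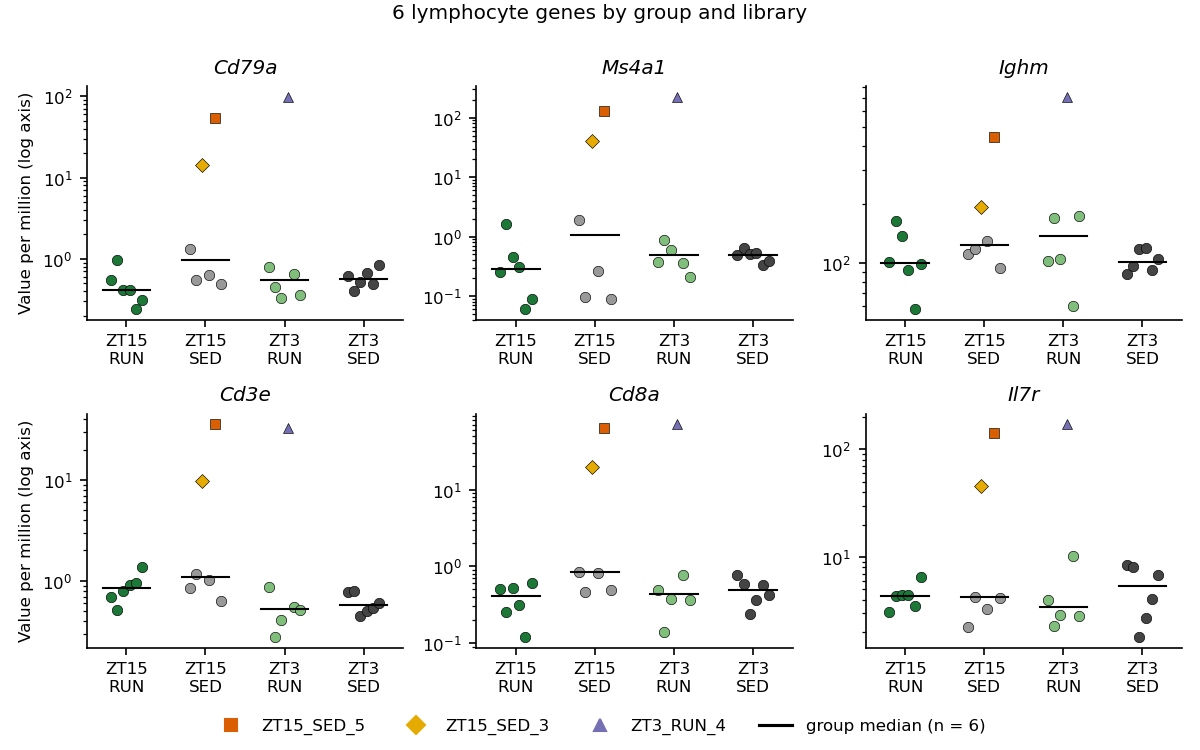
TMM-scaled CPM of 6 members in each library on log axes, by group, with the group median as a bar (n = 6). ZT15_SED_5, ZT15_SED_3 and ZT3_RUN_4 stand above the rest of their groups, and the remaining libraries of the 4 groups overlap.

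Cr2 was the member with the smallest p at ZT15. It ran from 1.89 through 2.23 to 4.41 in ZT15 RUN and from 3.60 through 5.09 to 175 in ZT15 SED. Without ZT15_SED_5 and ZT15_SED_3 the highest ZT15 SED value was 5.14 and the median 4.95, and ZT15_RUN_3, at 4.41, lay within that range. The log2 difference was -1.96 ± 0.86 (limma adjusted p = 0.338) with all libraries and -0.63 ± 0.17 (limma adjusted p = 0.113) without the 3. edgeR gave an adjusted p of 0.124 with all libraries. DESeq2 gave 0.0083 with all and 0.0498 without the 3, so the call depends on the tool. At ZT3 without the 3 its difference was -0.20 ± 0.16 (limma adjusted p = 1.00). Its exercise effect at ZT15 less that at ZT3 was -0.43 ± 0.24 without the 3 (limma adjusted p = 1.00), so the ZT15 difference is not shown to be particular to that time.

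At ZT3 the members lay on the other side. With all 24 libraries 32 of 32 were higher in ZT3 RUN, by a median of 0.74, and 0 passed limma (smallest adjusted p = 0.989), as did 0 of all genes. At an unadjusted p under 0.05 there were 0 members by limma. edgeR and DESeq2 also called 0, with 30 and 32 members at an unadjusted p under 0.05, beside 695 and 838 of all genes. The direction did not hold without ZT3_RUN_4. With the 3 libraries left out, 29 of 32 were lower, with a median of -0.09. This is a count of signs without a test, and the signs over all genes are not given here. Cd79a ran from 0.33 through 0.55 to 99.2 in ZT3 RUN and from 0.40 through 0.56 to 0.83 in ZT3 SED, a difference of 0.94 ± 0.91 (limma adjusted p = 0.989), or -0.07 ± 0.13 (1.00) without the 3. Cd3e ran from 0.28 through 0.53 to 32.7 in ZT3 RUN and from 0.44 through 0.57 to 0.80 in ZT3 SED. Il7r ran from 2.29 through 3.43 to 170 in ZT3 RUN and from 1.81 through 5.44 to 8.49 in ZT3 SED, and the second highest ZT3 RUN library, ZT3_RUN_5, was at 10.2. Cd4, Cxcr5, Ccr7 and Tcf7 had medians of 2.18, 0.27, 1.03 and 1.6 in ZT3 RUN, against 2.61, 0.27, 0.98 and 1.51 in ZT3 SED. Without ZT3_RUN_4 the ZT3 RUN medians were 2.04, 0.25, 0.74 and 1.34, all below those of ZT3 SED. The ranges of all these genes overlapped between the groups.

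The exercise effect at ZT15 less that at ZT3 was negative for 32 of 32 members, with a median of -2.16, and limma called 0 of them, as it called 0 of all genes. At an unadjusted p under 0.05 there were 3 members, Cr2, Lat and Ltb, a chain of lymphotoxin. The limma count over all genes at that level is not given here, so the 3 are not read as a result. edgeR called 0, with 32 members and 2135 of all genes at an unadjusted p under 0.05. DESeq2 called 30 members lower, among 239 genes in all (1.47% of the table, or 1.3% lower). Without the 3 libraries 14 members were above 0 and 18 below, the median was -0.04, and limma and DESeq2 (0.0123% of all genes) called 0 members, with 0 members at an unadjusted p under 0.05 in both. The comparisons share groups, so their directions are not independent.

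**Figure D5:**
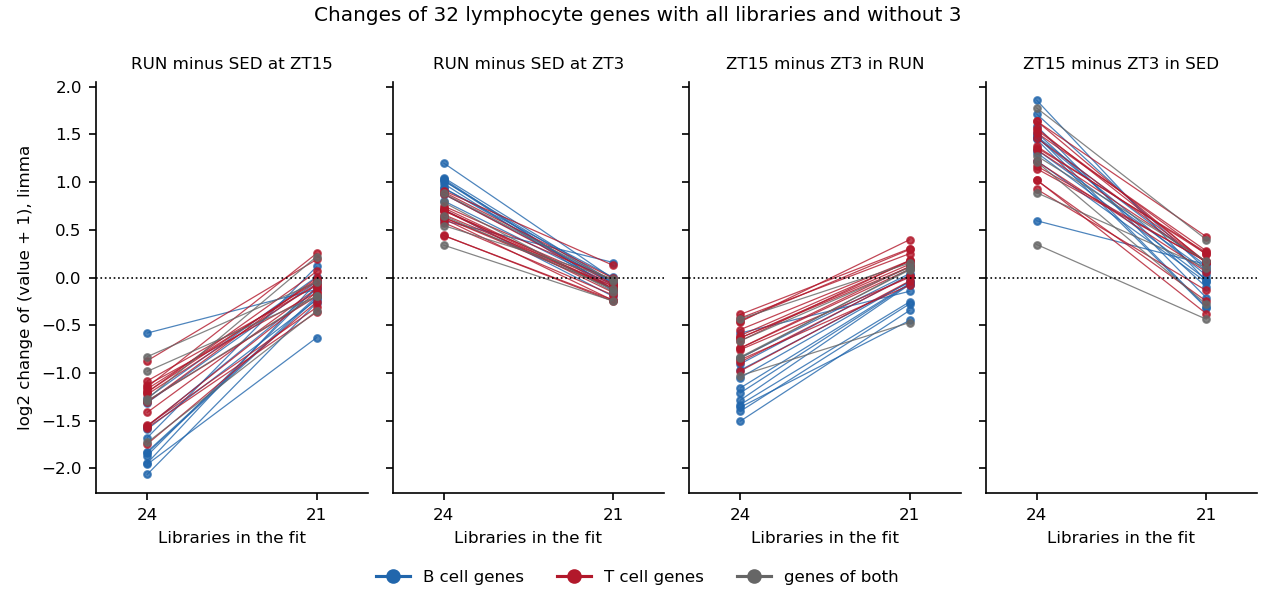
log2 difference of (value + 1) for each member in 4 comparisons, fitted with 24 libraries (left of each panel) and with 21 (right), coloured by role. With 24 libraries all 32 members share a sign in each panel, and with 21 their medians lie between -0.12 and 0.09.

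Time of day was compared within each treatment. In RUN mice 32 of 32 members were lower at ZT15 than at ZT3 with all libraries (median -0.84), and limma called 0 (smallest adjusted p = 0.291), against 4.19% of all genes, with 0 at an unadjusted p under 0.05. edgeR called 1 lower, Ighd (4.58% of all genes, or 2.0% lower), and DESeq2 called 25 lower (9.79% of all genes, or 5.08% lower). Without the 3 libraries 19 were higher and 13 lower, and limma (4.1% of all genes) and DESeq2 (7.62%) called 0, with 5 and 4 at an unadjusted p under 0.05. Of the T cell genes 13 of 15 were then above 0 and of the B cell genes 2 of 12, beside 8257 of 16233 genes, a count of signs without a test. Cd3e differed by 0.29 ± 0.11 (limma adjusted p = 0.139), Tcf7 by 0.40 ± 0.17 (0.188) and Zap70, a kinase of the T cell receptor, by 0.25 ± 0.11 (0.215). Cr2 differed by -0.45 ± 0.16 (limma adjusted p = 0.123) and Cd37 by -0.47 ± 0.21 (0.210). These are the 5 that limma put under 0.05 unadjusted. The count of all genes at that level is not given here, so the 5 are not read as a result about the members.

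In SED mice the sign was the other way. With all libraries 32 of 32 members were higher at ZT15 (median 1.37), and limma called 0 (smallest adjusted p = 0.410), against 1.18% of all genes, with 1 member, Cd3g, at an unadjusted p under 0.05. edgeR called 0 (1.18% of all genes), with 30 members and 2164 of all genes at an unadjusted p under 0.05, and DESeq2 called 23 higher (3.38% of all genes, or 1.76% higher). Without the 3 libraries 20 were higher and 12 lower (median 0.09), and limma (1.57% of all genes) and DESeq2 (3.57%) called 0, with 4 and 2 at an unadjusted p under 0.05. Cd3g differed by 0.43 ± 0.19 (limma adjusted p = 0.320), Cd3d by 0.26 ± 0.11 (0.278), Ltb by 0.40 ± 0.19 (0.345) and Cd4 by -0.25 ± 0.10 (0.274). Of the T cell genes 12 of 15 were above 0, beside 8297 of 16233 genes. The limma and DESeq2 counts at an unadjusted p under 0.05 lack those over all genes, so they are not read as a result about the members.

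Few genes of the other lists passed limma in these comparisons. Irf4, a transcription factor of plasma cells that fat cells also use, rose with exercise at ZT15 by 3.28 ± 0.68 (limma adjusted p = 0.0271), and without the 3 libraries it missed the threshold, at 3.56 ± 0.79 (0.0605). In RUN mice Rora, a nuclear receptor of the clock and of innate lymphoid cells, was higher at ZT15 than at ZT3 by 0.54 ± 0.15 (limma adjusted p = 0.0426), and by 0.40 ± 0.10 (0.0266) without the 3. Fcgr1, an Fc receptor of macrophages, differed by -1.21 ± 0.30 (limma adjusted p = 0.0241), and by -1.29 ± 0.31 (0.0232). Alas2, a haem synthesis enzyme of red cells, passed without the 3 alone, at -0.57 ± 0.11 (limma adjusted p = 0.0052).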

How the data were processed

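The authors deposited 1 table of scaled signal per gene and library. Its scaling was read from the values, since no label used here states it: whole reads were recovered for 100% of values (tolerance 0.01 reads), and the library factors equal those of edgeR's TMM, so the values are TMM-scaled CPM. The submitters' processing notes list limma 3.48.3, STAR, featureCounts and Subread 1.6.2 with no role or order. Build, annotation and strand setting: not given in the sources used here. Libraries held 18493799 to 34678732 recovered reads over the genes of the table, and no pair of the same group agreed within sampling noise.

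Values were compared as log2(value + 1) with limma 3.58.1 (lmFit and eBayes with a trend, R 4.3.3), with group means over 24 libraries and Benjamini-Hochberg adjustment over 16233 genes at 0.05, so folds of low genes are understated. Recovered reads were tested with edgeR 4.0.16 and DESeq2 1.42.0, and both were chosen after seeing the data, as was leaving out the 3 libraries above 5 in Cd79a. Further alternatives were quantile normalization, a pseudocount of 0.1, the lowest 25% of genes left out, only the groups compared, title number blocks, neighbouring title numbers as a block, and each library left out. Permutation tests used SciPy 1.17.1 with 100000 resamples. Intervals are exact at 95%. Exon lengths came from GENCODE M21.

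The members and lists were chosen with earlier results of these data known. Named were 12 members, the 3 most abundant genes of every other list, any list gene past the threshold, and the 10 genes most like Cd79a and Cd3e. Other genes were named after their values were seen. Some genes that the rule names are not reported here.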

Additional observations from a re-analysis of the deposited data

Results flagged for a closer look

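For the 12 named members, the highest or lowest library's gap to its neighbour was divided by the range of its group of 6, in 48 tests. In independent tests on normally distributed values chance gives about 1 in 20 groups a gap this wide, and 26 had one. Values were taken as deposited, without a log, so that rate may not hold here. These tests are not independent: 23 of the 26 lie in libraries set apart by Cd79a, whose levels the other genes share, so they restate that choice and add no evidence.

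In ZT3_RUN_4 the gap was 0.995 for Cd79a, 0.997 for Ms4a1, 0.823 for Ighm, 0.997 for Ighd, 0.994 for Cr2 and 0.997 for Cxcr5 among B cell genes. Among T cell and shared genes it was 0.982 for Cd3e, 0.988 for Cd4, 0.991 for Cd8a, 0.986 for Ccr7, 0.953 for Il7r and 0.981 for Tcf7.

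In ZT15_SED_5 it was 0.748 for Cd79a, 0.694 for Ms4a1, 0.712 for Ighm, 0.719 for Ighd, 0.763 for Cr2 and 0.740 for Cxcr5. It was 0.737 for Cd3e, 0.671 for Cd4, 0.688 for Cd8a, 0.685 for Il7r and 0.708 for Tcf7.

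In ZT15_RUN_2, which is not one of the 3 high libraries, it was 0.752 for Ms4a1, 0.772 for Ighd and 0.741 for Cxcr5, all B cell genes, and no T cell gene had a gap this wide there.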

How the results depend on the processing

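Under limma 0 members were called in any comparison with any single library left out (0 to 0). For exercise at ZT15, 104 genes passed, 78 of them higher. There were 1 with neighbouring title numbers as a replicate block (labels give them no pairing), 22 without the 3 libraries, 561 by DESeq2 (329 higher, 232 lower), 364 by DESeq2 without the 3, and 16 (without ZT15_RUN_4) to 293 (without ZT3_RUN_4) with 1 library left out. Quantile normalization gave 67 higher and 5 lower. For ZT15 against ZT3 in SED, 191 passed, with 287 under title number blocks, 548 by DESeq2, 580 by DESeq2 without the 3, and 130 (without ZT3_SED_4) to 388 (without ZT3_RUN_4). In RUN, 680 passed, with 426 after quantile normalization, 109 with only the groups compared (89 higher, 20 lower), 1590 by DESeq2, 1237 by DESeq2 without the 3, and 330 (without ZT15_RUN_4) to 1004 (without ZT15_RUN_2). The interaction gave 0, with 239 by DESeq2 and 2 by DESeq2 without the 3. DESeq2 called 26 members for exercise at ZT15 (1 without the 3), 30 for the interaction, 23 for time in SED and 25 in RUN, and edgeR called 1 in RUN. The cause was not tested.

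Of 6 members refitted, 5 exercise differences at ZT3 turned negative without ZT3_RUN_4, and so without the 3: -0.069 for Cd79a, -0.014 for Ms4a1, -0.087 for Cd3e, -0.069 for Cd8a and -0.24 for Il7r. Ighm stayed positive, at 0.16. With other libraries left out those 5 reached 1.18, 1.5, 0.86, 1.13 and 0.90 in that order. At ZT15 Il7r was 0.25 without the 3. The correlation of Cd79a with Ms4a1 was 0.19 without the farthest 2 libraries. In the 21 libraries low counts, down to 0 reads for Fcmr and Cd6, limit what can be detected.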
